A study of Caenorhabditis elegans with 2 samples.

Results

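ELT-3 binding was examined at the genes of the Sma/Mab pathway, the branch of TGF-beta signalling that sets body size in the nematode *Caenorhabditis elegans*. The set was the 10 genes dbl-1, lon-2, sma-6, daf-4, sma-10, sma-2, sma-3, sma-4, sma-9 and lon-1, out of 19973 protein-coding genes on the nuclear chromosomes. Each gene was matched by its Ensembl symbol, and each region that overlapped the stretch from 3000 bp upstream of its annotated 5′ end to its 3′ end by at least 1 bp was taken. These stretches are called windows here, and all coordinates are in build ce11. ELT-3 is a GATA-type transcription factor of the epidermis, and chromatin immunoprecipitation with sequencing (ChIP-seq) maps where a protein sits on DNA. Both libraries came from whole first-stage (L1) larvae, males and females pooled, so no region can be assigned to a tissue. They were of strain OP75, which carries the unc-119(ed3) mutation and the transgene wgIs75 with a tagged elt-3. No untagged strain, other genotype or other stage is in the group, so every value below describes this transgenic line. The libraries are biological replicates 1 and 3. Per the labels their worms came from different sources, only replicate 3 is recorded as sonicated, and a C-terminal GFP-FLAG tag is noted only for replicate 3. The antibody is labelled elt-3, and the tagged protein is given as the target.

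In this pathway the ligand DBL-1, a relative of vertebrate bone morphogenetic proteins made mostly by neurons, acts on receptors in the epidermis. The receptors activate Smad proteins, which move to the nucleus and, with cofactors, change the expression of target genes. Loss of the ligand, a receptor or a Smad gives small worms (the name sma), and loss of LON-1 or LON-2 gives long ones (the name lon).

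Of the 10 genes, 4 held a region that passed the submitters' reproducibility threshold, called a thresholded region here: the co-receptor gene sma-10, the Smad gene sma-2, the cofactor gene sma-9 and the target gene lon-1. The share was 40% (exact binomial 95% interval 12.2 to 73.8), and of all coding genes 17.6% held such a region, a value inside that interval. The 4 genes held 8 thresholded regions, of which sma-9 alone held 5. The signal, the caller's measure of a region's strength, ran from 36.3 to 102.4 over these 8 regions with a median of 65.7, against a median of 53.3 over all 2916 nuclear thresholded regions. Neither the ligand gene, nor the gene of its antagonist LON-2, nor either receptor gene, nor the Smad genes sma-3 and sma-4 held one.

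**Figure D1:**
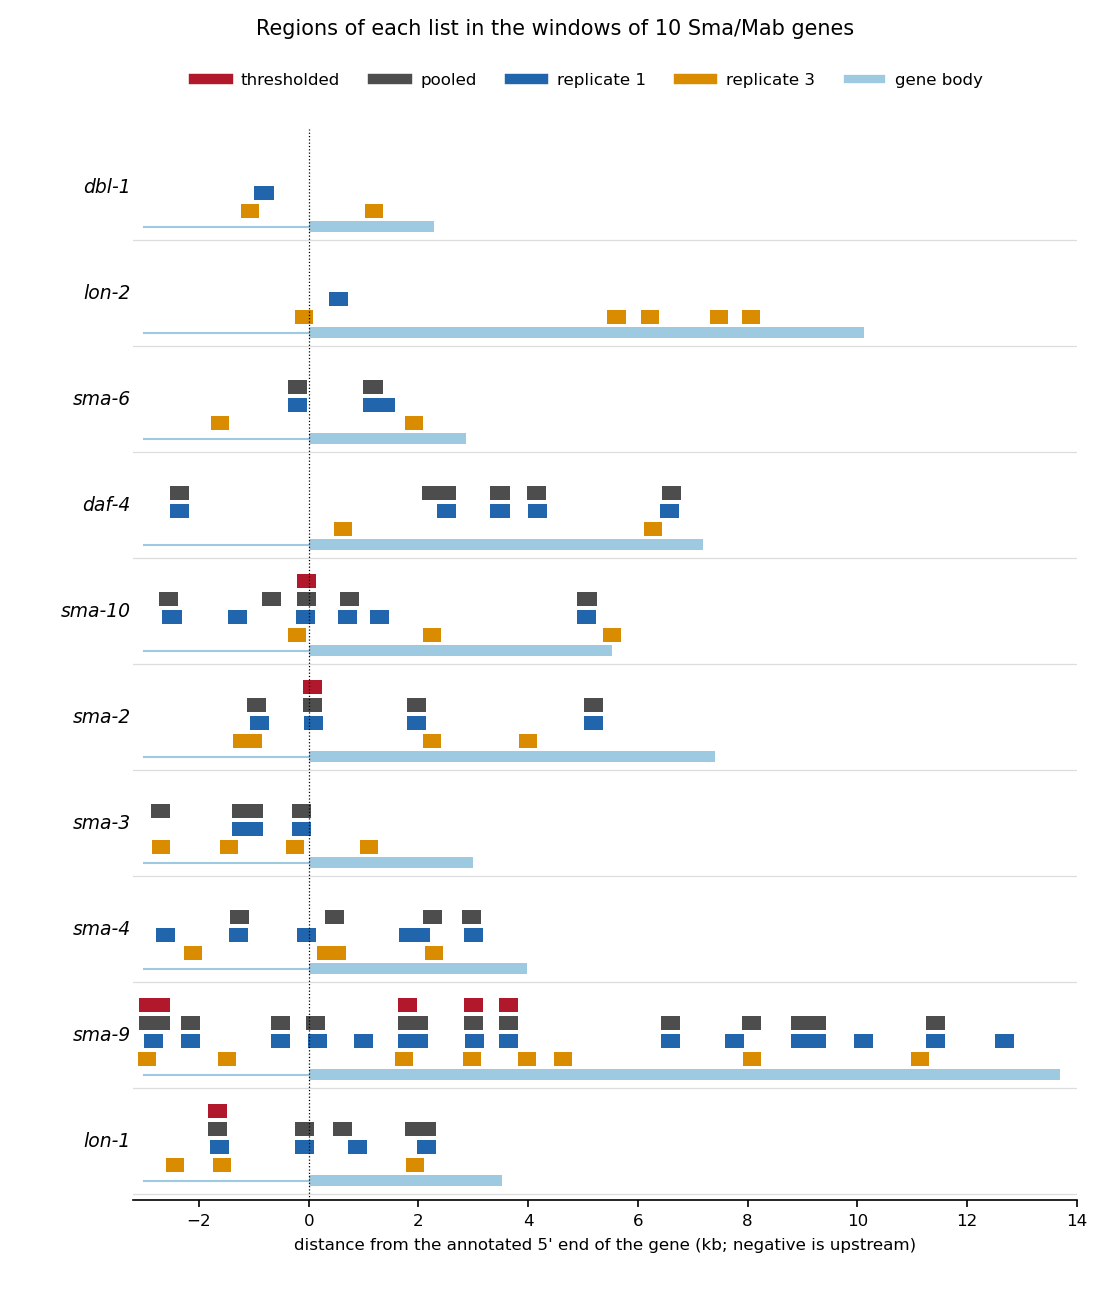
Regions of the thresholded, pooled, replicate 1 and replicate 3 lists along each gene, with distance from the annotated 5′ end in kb on the horizontal axis (upstream is negative), each list in its own row and colour, and the gene body as a pale bar. Thresholded regions appear at sma-10, sma-2, sma-9 and lon-1, and sma-9 holds 5 of the 8.

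Long windows hold more regions, and these windows were long, with a median of 7749 bp against 5027 bp over all coding genes. Among genes with windows of 5 to 10 kb, 2 of the 6 pathway genes had a thresholded region, and 19.7% of all coding genes in that class did. Among windows of 10 kb or longer it was 2 of 4, and 28.5% of all coding genes. Per 10 kb of window the 10 genes had 0.893 thresholded regions, against 0.351 over all coding genes. Without sma-9 the density was 0.412 (3 regions at 9 genes), so much of the difference in density came from 1 gene.

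The list called on the pooled libraries, which also keeps weak candidate regions, had a region at 8 of the 10 genes, and 66.4% of all coding genes had one. The exceptions were dbl-1 and lon-2. In all, 44 pooled regions lay in these windows, 4.91 per 10 kb against 3.24 over all coding genes. Each gene had at least 1 region in the list of replicate 1 (10 of 10, against 64.8% of coding genes) and in that of replicate 3 (10 of 10, against 75.1%). The interval for 10 of 10, 69.2 to 100, includes the second of those values. None of the shares in these lists is matched for window length, and the windows of the 10 genes were long.

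**Figure D2:**
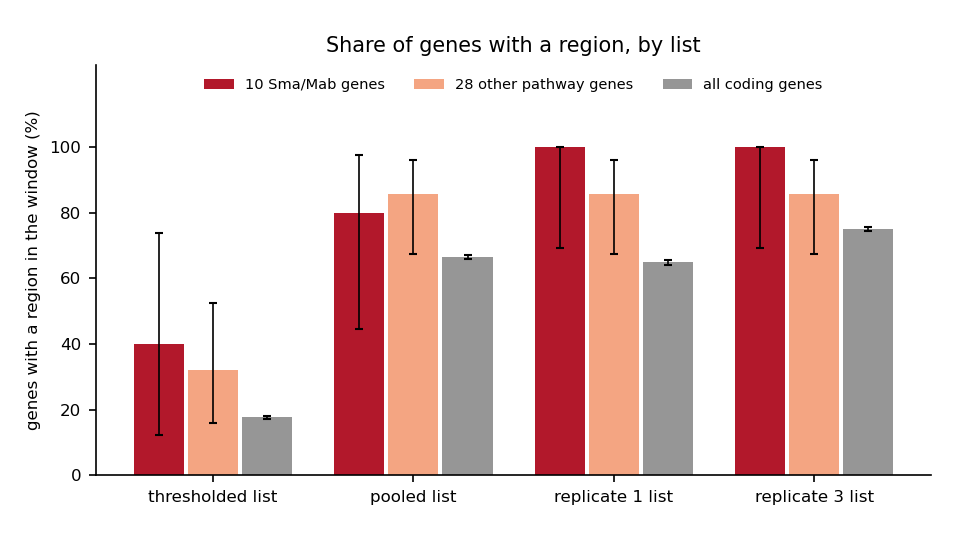
Percent of genes with at least 1 region in the window, by list, for the 10 Sma/Mab genes, 28 other pathway genes and all coding genes, with exact binomial 95% intervals as error bars. In the thresholded list the shares are 40%, 32.1% and 17.6%, and the intervals of both small sets are wide.

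The ligand gene and the gene of its extracellular antagonist had no pooled region and 1 replicate 1 region each, the fewest of the 10 in those lists. In the replicate 3 list dbl-1 had 2, the lowest number there, shared with sma-6 and daf-4, and lon-2 had 5. At dbl-1 (chromosome V, 6758135 to 6760418, plus strand) the pooled list had no region, as at 33.6% of coding genes. Replicate 1 had 1 weak region 815 bp upstream of the 5′ end, with a signal of 5.85 and rank 24204 of 30000. Replicate 3 had a region with its summit in a coding exon 1184 bp downstream (signal 5.69, rank 2477 of 24854) and another 1065 bp upstream (2.69, rank 16822). The upstream regions of both libraries overlapped, with summits 250 bp apart. At lon-2, which encodes a glypican that binds DBL-1 outside the cell (chromosome X, 4738964 to 4749083, minus strand), the window of 13120 bp held no pooled region. Of the 965 coding genes with windows that long or longer, 7.05% held none. Replicate 1 had 1 intronic region at lon-2 (signal 9.46, rank 12764), and replicate 3 had 5, with ranks from 8996 to 18740.

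Both receptor genes had pooled regions, all of them below the threshold. At sma-6, which encodes the type I receptor (chromosome II, 6324484 to 6327355, plus strand), the strongest pooled region had its summit 207 bp upstream, with a signal of 23.1 and rank 4731. In replicate 1 that region had a signal of 20.9, and no region of replicate 3 overlapped it. It held 2 GATA sites within 50 bp of its summit. At daf-4, whose product is the type II receptor of this pathway and of the dauer pathway (chromosome III, 5625135 to 5632323, plus strand), 6 pooled regions had signals from 6.08 to 19.8. The strongest lay 2353 bp upstream, with 2 GATA sites, and ranked 5617 in the pooled list. Replicate 3 had its own strongest daf-4 region in an intron, 625 bp into the gene (signal 5.56, rank 2700), where neither the pooled list nor replicate 1 had one.

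The sma-10 region lay at the gene's start. SMA-10 is a membrane protein with leucine-rich repeats and immunoglobulin domains that binds the receptors and promotes their signalling. The gene lies on chromosome IV (274420 to 279943, plus strand), and its thresholded region (274207 to 274556) had a signal of 66.5 and rank 951 of 2940. Its summit stood 38 bp upstream of the 5′ end, between genes, and no other coding 5′ end was nearer. In replicate 1 the region had a signal of 65.6 and rank 877. The overlapping region of replicate 3 was weak (signal 3.81, rank 8412), with its summit 180 bp away. The 88 bases printed below (chrIV:274332-274419, plus strand, RefSeq assembly of the same build, cut at the transcript start) hold 2 GATA sites, in capitals, on opposite strands. One of them begins at the summit itself.

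sma-10: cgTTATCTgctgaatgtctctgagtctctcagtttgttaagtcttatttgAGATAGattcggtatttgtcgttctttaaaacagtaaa

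Among the Smad genes, sma-2 held a thresholded region and the other 2 had pooled regions just below it in signal. SMA-2, SMA-3 and SMA-4 are the Smads of this pathway, the first pair being substrates of the receptor and SMA-4 their common partner. At sma-2 (chromosome III, 8749680 to 8757089, plus strand) the thresholded region (8749568 to 8749917) had a signal of 36.3 and rank 2690 of 2940, near the bottom of the list, whose lowest nuclear signal was 34.2. Its summit lay in the 5′ UTR 63 bp downstream of the first annotated start and 20 bp upstream of the second. No coding 5′ end was nearer than that of sma-2. The summit also lay within ugtp-1, an opposite-strand gene whose 5′ end is 1026 bp downstream of that of sma-2. The list therefore cannot say which of these genes, if either, the region belongs to. Replicate 1 had it at 34.0, rank 2753, and replicate 3 had no region there. At sma-3 (chromosome III, 6860974 to 6863968, minus strand) a pooled region with its summit 137 bp upstream had a signal of 33.0 and rank 3066. Replicate 1 had it at 28.9, and an overlapping region of replicate 3 had a signal of 3.86. At sma-4 (chromosome III, 5816232 to 5820204, plus strand) the strongest pooled region had a signal of 31.6 and rank 3266. It lay 1269 bp upstream of sma-4 but only 82 bp upstream of the neighbouring gene R12B2.7, so the list cannot say which gene, if either, it belongs to. The −log10 q of the sma-3 and sma-4 regions was 3.86, equal to that of all thresholded regions, so that value does not set them apart from the list.

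**Figure D3:**
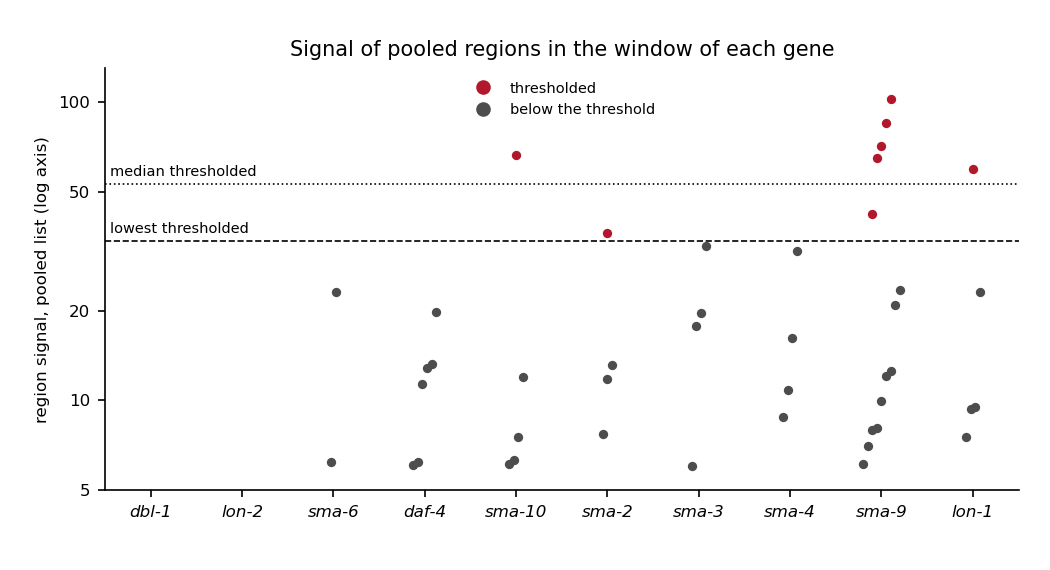
Signal of each pooled region (log axis) in the window of each gene, red where the region is thresholded and grey where it is not. Dashed and dotted lines mark the lowest and the median signal of nuclear thresholded regions, 34.2 and 53.3, and dbl-1 and lon-2 have no pooled region.

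The most regions lay at sma-9, which encodes a zinc-finger cofactor related to Schnurri of *Drosophila* that works with the Smads. The gene spans 10769282 to 10782973 on chromosome X, plus strand, and its window of 16692 bp is the longest of the 10. Of all coding genes, 23 (0.115%) had 5 or more thresholded regions, and among the 512 genes with windows as long as that of sma-9 or longer 10 did (1.95%). The cutoff of 5 and the window length are the values of sma-9 itself, so these shares place the gene and test nothing. Per 10 kb of window sma-9 had 3.00 thresholded regions, and 435 coding genes had a higher density. The 5 summits spread over 6556 bp.

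One pair of sma-9 regions lay upstream and shared 147 bp. The first (10766194 to 10766543) had its summit 2913 bp upstream, close to the edge of the window, and was the strongest region at any of the 10 genes, with a signal of 102.4 and rank 347. The second (10766397 to 10766746), 2710 bp upstream, had a signal of 42.3 and rank 2202. Both overlapped the same single region of replicate 1 (signal 93.8, rank 383) and the same single region of replicate 3 (signal 10.3, rank 232), so each library by itself gave 1 region there. No coding 5′ end was nearer to either summit than that of sma-9.

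The other sma-9 regions were intronic. Their summits lay 1796, 3006 and 3643 bp downstream of the 5′ end, with signals of 71.3, 65.0 and 85.4 and ranks of 806, 1003 and 534. The annotation has 1 shorter coding transcript of sma-9 that begins at 10773081 and 10 that begin at 10773091. The summits at 3006 and 3643 bp lay 793 and 156 bp upstream of the earlier of these starts, and the region of the second (10772750 to 10773099) covers both starts. Replicate 1 had these 3 regions at ranks 803, 997 and 431. Replicate 3 had the region at 1796 bp at rank 718 (signal 7.79), the region at 3006 bp only at rank 21935 (signal 2.22), and none at 3643 bp.

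Each sma-9 summit with 50 bases on either side (plus strand, RefSeq assembly of the same build) is printed in order along the chromosome, because the gene holds most of the thresholded regions and only some of them carry a GATA site, again in capitals. The stretches are chrX:10766319-10766419, chrX:10766522-10766622, chrX:10771028-10771128, chrX:10772238-10772338 and chrX:10772875-10772975.

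sma-9, 2913 bp upstream: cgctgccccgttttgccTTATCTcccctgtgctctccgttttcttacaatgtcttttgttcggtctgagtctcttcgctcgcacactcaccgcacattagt
sma-9, 2710 bp upstream: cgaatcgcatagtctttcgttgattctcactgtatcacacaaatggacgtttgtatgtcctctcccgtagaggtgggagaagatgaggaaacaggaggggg
sma-9, 1796 bp downstream: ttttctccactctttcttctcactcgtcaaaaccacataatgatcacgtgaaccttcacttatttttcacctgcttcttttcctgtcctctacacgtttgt
sma-9, 3006 bp downstream: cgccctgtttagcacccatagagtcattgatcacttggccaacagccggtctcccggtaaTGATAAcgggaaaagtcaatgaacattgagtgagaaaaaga
sma-9, 3643 bp downstream: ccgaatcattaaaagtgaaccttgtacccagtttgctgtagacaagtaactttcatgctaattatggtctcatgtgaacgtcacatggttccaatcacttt

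The target gene lon-1 had its thresholded region well upstream of its start. LON-1 is a secreted protein of the cysteine-rich family that limits body length, and the pathway lowers its expression. The gene lies on chromosome III (5474476 to 5478005, plus strand), and the region (5472639 to 5472988) had its summit between genes, 1662 bp upstream, with a signal of 59.9 and rank 1180. Both libraries held it, replicate 1 at rank 1416 (signal 51.5) and replicate 3 at rank 1011 (signal 7.13). A second pooled region 84 bp upstream of the start stayed below the threshold, with a signal of 23.0 and no overlapping region of replicate 3. The stronger summit with 50 bases on either side (chrIII:5472764-5472864, plus strand) holds 2 adjacent GATA sites 39 and 32 bp before the summit. The summits of replicates 1 and 3 lay 42 and 84 bp nearer to the gene, and neither had a site within 50 bp.

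lon-1: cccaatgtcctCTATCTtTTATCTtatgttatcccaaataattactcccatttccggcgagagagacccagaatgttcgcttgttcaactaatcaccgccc

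The GATA sites searched were AGATAA and AGATAG, and also TGATAA and TGATAG, on either strand, within 50 bp of a summit. Of the 8 thresholded regions at these genes 4 held one (50%, interval 15.7 to 84.3), at sma-10, lon-1 and 2 of the sma-9 regions, and 34.8% of all nuclear thresholded regions did. With 2 or more sites there were 2 of 8, sma-10 and lon-1, against 13.3%. Of the 36 pooled regions below the threshold 12 held a site (33.3%, interval 18.6 to 51.0), against 22.1% of all such nuclear regions. GAGAGA, whose last letters AGA are also the first of AGATAA and AGATAG, lay within 50 bp of 3 of the 8 summits (at sma-10, sma-2 and lon-1), against 25.1% of all nuclear thresholded regions. The shares of 34.8% and 22.1% over all regions fell inside the intervals beside them. GATAAG, which shares GATAA with AGATAA and TGATAA, lay at 1 of the 8 (12.5%), against 14.3% of all nuclear thresholded regions. Of the 8 regions in these windows that ranked within the same list length in replicate 1 alone, 2 held a site (25%). In replicate 3 alone it was 33.3% of 6 regions. The shares over all regions of those 2 lists are not given here. Some sites near a pooled summit lay more than 50 bp from a library's own summit, as at lon-1.

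Where summits lay differed along the pathway's genes. Of the 10 genes, sma-10 and sma-2 had a thresholded summit near the 5′ end, no more than 1000 bp before it or 500 bp after it (2 of 10), and 9.4% of all coding genes had one. Of the 8 thresholded summits 4 lay between genes, 3 in introns and 1 in a 5′ UTR, against 67.8%, 25.2% and 3.36% of all nuclear thresholded summits. Of the 36 pooled regions below the threshold 16 had their summit in an intron, 10 in a coding exon and 10 between genes, against 35.8%, 18.2% and 39.1% of all such nuclear regions.

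The libraries ranked these regions differently. All 8 thresholded regions overlapped a region of replicate 1, and 6 (75.0%, interval 34.9 to 96.8) overlapped one of replicate 3, against 58.6% of all nuclear thresholded regions. Those 6 rested on 5 distinct regions of replicate 3. Of the pooled regions below the threshold 13 of 36 (36.1%, interval 20.8 to 53.8) overlapped a replicate 3 region, against 34% of all such nuclear regions. Among the strongest regions of each library alone, taken to the length of the thresholded list, replicate 1 marked sma-10, sma-2, sma-4, sma-9 and lon-1 (5 of 10, against 17.6% of coding genes). Replicate 3 marked dbl-1, daf-4, sma-9 and lon-1 (4 of 10, against 16.6%). The genes marked by both were sma-9 and lon-1. The share of all coding genes marked by both is not given here, so this overlap cannot be read as a trait of the pathway. The lists carry no read counts, and the part that depth or library quality had in these ranks was not tested.

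**Figure D4:**
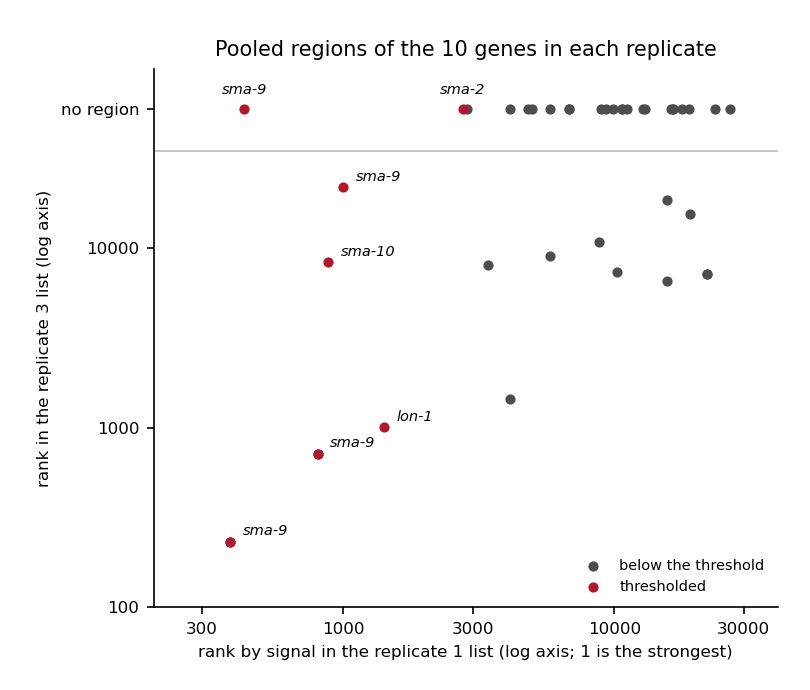
Rank by signal of the 41 pooled regions of the 10 genes that overlapped a replicate 1 region, in the replicate 1 list (horizontal, log axis) and in the replicate 3 list (vertical, log axis, with regions that have no counterpart on the top row), red where thresholded. The upstream sma-9 region, the sma-9 region at rank 718 and the lon-1 region rank high in both lists, while a sma-9 region and the sma-2 region have no replicate 3 counterpart.

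Of 28 other genes linked to the pathway or to body length 9 held a thresholded region (32.1%, interval 15.9 to 52.4). The 17.6% of all coding genes lies inside that interval. Their windows had a median of 7761 bp. With windows of 5 to 10 kb 3 of 10 had a region, against 19.7% of all coding genes in that class. With 10 kb or longer it was 5 of 10, against 28.5%, and under 5 kb 1 of 8. Among 8 genes of extracellular and membrane modulators 4 had one. The metalloprotease gene adt-2 on chromosome X had 4 regions, with signals of 78.6, 55.3, 37.3 and 57.4 and the strongest 2020 bp upstream. The tetraspanin gene tsp-21 had a region of signal 72.8, whose replicate 3 counterpart ranked 647. The netrin receptor gene unc-40 had one of 47.9, and the tetraspanin gene tsp-12 one of 46.9, which lay nearer to the start of copg-1, a coatomer subunit gene. No replicate 3 region overlapped the tsp-12 region or the adt-2 regions of 55.3 and 37.3. The other adt-2 regions had replicate 3 counterparts at ranks 1808 and 2823, and that of unc-40 ranked 8808.

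Of 3 intracellular regulators, the kinase gene kin-29 (61.4, 131 bp upstream of its start) and mab-21 (48.0, with 2 GATA sites) had a region each. The mab-21 summit lay 294 bp upstream of its start, in an intron of sel-2. In replicate 3 the kin-29 counterpart ranked 1088 and that of mab-21 only 18038. In the parallel dauer branch, which shares the receptor DAF-4 and controls entry into the dauer larva, 2 of 6 genes had regions. The Smad gene daf-14 had 2 (34.9 and 60.0), and daf-5, whose product is related to the Sno and Ski proteins, had 3 in introns (37.1, 55.1 and 62.1). No replicate 3 region overlapped the daf-5 region of 55.1, and the other daf-14 and daf-5 regions had one. None of the 3 other ligand genes (tig-2, tig-3 and unc-129) had one, nor did the dauer ligand gene daf-7. No TGF-beta ligand gene on either list thus carried a thresholded region, but only 17.6% of all coding genes did. With so few genes, whether the lack is a trait of ligand genes cannot be read from these counts. Of the 8 genes of body length or cuticle only sma-5, a MAP kinase gene, had one (44.0). The collagen genes rol-6, lon-3, col-41, col-141 and col-142 had none.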

How the data were processed

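The deposited files are narrowPeak lists in build ce11 for each library, for both pooled, and for the thresholded set, which per the deposited manifest derives from the other 3. Each candidate list was made from alignments and a control file common to both libraries. Aligner and caller remain not given in the sources used here. In each list the signal, as deposited, is the caller's strength of a region, and its scale differs between lists, so libraries were compared by rank. The deposited −log10 q was used only where named. Lists hold no read counts, so depth is unknown, and intervals cover counting error only. The ce10 lists were not used here, and of the 2940 thresholded regions the 2916 on nuclear chromosomes were kept.

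Genes and transcripts came from Ensembl release 115 (WBcel235, the assembly of ce11). Regions were counted by overlap of at least 1 bp. No test was run: with 1 group of 2 libraries, counts stand beside the same count over all coding genes or nuclear regions, with exact binomial (Clopper-Pearson) 95% intervals. Genes and lists were chosen with earlier results of these data known. The classes of window length, the counts beside lon-2 and sma-9, and GAGAGA were chosen after seeing these lists. All 10 genes are named, and other pathway genes where they held a thresholded region. Sequences shown are those around the thresholded summits outside UTRs. Python 3.11.15, pandas 2.3.3, numpy 2.4.6, scipy 1.17.1 and matplotlib 3.10.9 were used, and the counting and motif search were tested on simulated data.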

Additional observations from a re-analysis of the deposited data

How the results depend on the processing

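Of 42 alternative values, 34 stayed close to the reported one, within 1.5 times for a count, within the interval for a share and within the SD between libraries for a density. For shares this rule is loose, because intervals for 8 regions are wide. Shares of 25% to 66.7% with a GATA site counted as close to 50%, so the number 34 is no measure of stability. Windows from 1000 bp upstream left 5 thresholded regions and 0.719 per 10 kb, and lon-1 dropped out (3 of 10 genes, against 12.8% of coding genes). Windows from 5000 bp upstream added daf-4 and sma-4 (6 of 10, against 21.5%). The 1458 thresholded regions of highest signal gave 0.670 per 10 kb, 3 of the 10 genes and 5 of the 28 other pathway genes with a region (against 9.71% of coding genes), and 1 gene with a summit near its 5′ end (against 5.04%). For the 1000 bp windows and for these 1458 regions the density over all coding genes is not given here, so their lower densities cannot be set against it. To leave out a replicate, the strongest regions of the other library alone were taken to the length of the thresholded list, without the reproducibility threshold. These gave 0.670 to 0.893 regions per 10 kb (against 0.317 to 0.352 over all coding genes) and 0 to 2 genes with a summit near the 5′ end. The 0 came from replicate 3 alone (against 5.87% of coding genes). Asking for a replicate 3 summit within 100 bp left 4 of 8 thresholded regions (50%) with support in that library. The share of all nuclear thresholded regions under this rule is not given here, so the 50% cannot be set against one. Searching GATAAG alone gave 12.5% of regions with a site. The causes were not tested. With depth unknown, the lack of a pooled region at dbl-1 and lon-2 does not show that they were unbound. No paired analysis was possible because the libraries form a single group.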

Other observations

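Pooled regions below the threshold also lay at internal transcript starts of sma-2, daf-4 and sma-4. At sma-2 a region of signal 13.2 had its summit 20 bp upstream of the start of a short transcript that begins 5212 bp into the gene, and it held a GATAAG site. At daf-4 a region of signal 11.4 lay 83 bp downstream of a start 3405 bp into the gene. At sma-4 a region of signal 10.9 lay 155 bp downstream of a start 2815 bp into the gene. No region of replicate 3 overlapped any of these 3. All were weak, with −log10 q of 0.84, 0.52 and 0.45. Not every internal start had one, and at the daf-4 start 1351 bp into the gene the nearest pooled summit lay 897 bp away. How often such regions lie at internal starts over all coding genes is not given here.

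At sma-9 a pooled region of signal 20.98 lay in an intron, 11433 bp into the gene and below the threshold. An overlapping region of replicate 3 ranked 1456, but its summit lay 297 bp away. Of the 37 regions of replicate 3 in the windows of the 10 genes, 19 overlapped no pooled region, against 57.8% of all nuclear replicate 3 regions. Of the 49 regions of replicate 1, 10 overlapped none, against 18.3%.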
